A study of Mus musculus and Homo sapiens with 40 samples.

Results

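The DNA replication and E2F target genes are 39 named mouse genes, taken as a fixed list from 21580 protein-coding genes of the GENCODE annotation of GRCm39 (mm39). The rule that defines the list uses no measured value, although the list was drawn up with earlier results of these data known. The data are ChIP-seq peak lists of HPC-7 cells, a mouse hematopoietic progenitor line, transduced with a retroviral vector that carries GFP and 1 CEBPA isoform fused to ERT2, a modified ligand-binding part of the estrogen receptor. One line expressed CEBPA-p42-ERT2, the full-length isoform, and the other CEBPA-p30-ERT2, the N-terminally truncated isoform of mutant CEBPA, so every value comes from cells that overexpress a fusion protein. According to the methods of the study, hydroxytamoxifen was given to bring such fusions into the nucleus, a treatment that the sample labels do not name. H3K27ac, a mark of active promoters and enhancers, was measured in 3 samples of each line, untreated or after 2 h of LPS at 100 ng/mL. H3K4me1, a mark of enhancers and promoter flanks, was measured in 2 untreated samples of each line. CEBPA occupancy was measured in untreated cells with 2 antibodies, anti-CEBPA and anti-ER (which binds the receptor part of the fusion), in 1 sample of each line for each antibody. The series holds 40 samples, and 20 stand behind the 10 peak lists used here.

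Each list was called once, from replicates pooled by the authors or from 1 library. No list has a replicate of its own, so no difference between lists could be tested, and sequencing depth is not shown by the lists. H3K27ac peaks numbered 129369 in untreated p42, 107141 in p42 with LPS, 139210 in untreated p30 and 142419 in p30 with LPS. The H3K4me1 lists held 134658 and 168035 peaks in p42 and p30, the anti-CEBPA lists 47517 and 31851, and the anti-ER lists 23248 and 34006. Of 10 stem and progenitor marker genes, 8 to 10 had a promoter H3K27ac peak in each list, against none of 3 liver and none of 3 neuronal markers. Among lymphoid markers, 1 of 4 T cell genes (Cd3d) had one in every list, and 1 of 4 B cell genes (Cd79a) had one in p30 with LPS alone.

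Before S phase, cells load the MCM helicase onto replication origins with CDC6 and CDT1, and later activate it with CDC45 and the GINS complex. Many genes for these proteins, for the DNA polymerases and for nucleotide supply are switched on together by E2F transcription factors. Pocket proteins such as RB and p107 (the product of Rbl1) hold these factors back. CEBPA p42 is known to restrain E2F-dependent transcription and cell division, a property attributed to the N-terminal part that p30 lacks. LPS, a component of the outer membrane of bacteria, triggers inflammatory transcription through Toll-like receptor 4. The comparisons below ask where these marks and CEBPA lay at the replication genes, and whether this differed between the isoforms and with LPS.

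The promoters were first searched for short DNA words. E2F factors recognize variants of TTTCCCGC, TTTCGCGC, TTTGCCGC and TTTGGCGC, and NF-Y, a general activator of cell cycle promoters, recognizes CCAAT. In the 250 bases before and 50 bases after the canonical start site, 18 of the 39 promoters (46.2%) held 1 of the 4 E2F words on either strand, against 2.84% of all protein-coding promoters and 4.33% of those of 10349 genes with promoter H3K27ac in all 4 lists. CCAAT was present in 24 of 39 (61.5%, against 39.9% of all and 40% of the latter). The SP1 box GGGCGG was found in 22 (56.4%), above the 42.7% of all promoters but below the 60.2% of genes with promoter H3K27ac. The cell cycle homology word TTTGAA was found in 4 (10.3%, against 17.1% and 13.2%) and the CEBP word TTGCNNAA in 3 (7.69%, against 10.7% and 8.63%). In the RefSeq promoter table, on GRCm38.p6 and with 33 of the 39 genes matched, 16 genes (48.5%) held an E2F word in any listed promoter, against 3.65% of all genes. There CCAAT was found for 22 genes (66.7%, against 42.4%), the SP1 box for 26 (78.8%, against 54.5%) and the CEBP word for 2 (6.06%, against 11.3%). TTTGAA was found for 7 (21.2%, against 16.5%), so its direction differed between the tables. The members were listed as replication and E2F target genes, so a high share of E2F words follows at least in part from that choice. A word is a match of letters and says nothing of occupancy, and E2F words that differ from these 4 were not counted.

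The promoters of 3 genes are shown from 200 bases before to 20 bases after the canonical start. They are on the strand of the gene, with the E2F words in capitals. These genes are among those with the largest H3K27ac differences with LPS below. All 3 hold an E2F word, as do 18 of the 39 members. In Mcm6, a helicase subunit, 3 words stood in this window, 2 of which overlap. Mcm4 and E2f1 each had 2 words in the longer window searched above, of which 1 is marked here. The other word of Mcm4 began 224 bases before the start, and that of E2f1 runs past the end shown.
Mcm6, chr1:128287432-128287652, minus strand: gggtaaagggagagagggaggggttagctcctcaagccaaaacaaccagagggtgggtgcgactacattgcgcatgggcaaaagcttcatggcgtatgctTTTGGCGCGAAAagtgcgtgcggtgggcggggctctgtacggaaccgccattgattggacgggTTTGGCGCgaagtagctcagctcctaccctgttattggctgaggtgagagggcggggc
Mcm4, chr16:15455244-15455464, minus strand: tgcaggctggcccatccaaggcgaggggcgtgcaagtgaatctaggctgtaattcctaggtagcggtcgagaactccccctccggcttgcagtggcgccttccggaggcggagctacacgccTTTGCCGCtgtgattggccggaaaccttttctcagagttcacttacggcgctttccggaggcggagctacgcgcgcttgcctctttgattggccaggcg
E2f1, chr2:154411792-154412012, minus strand: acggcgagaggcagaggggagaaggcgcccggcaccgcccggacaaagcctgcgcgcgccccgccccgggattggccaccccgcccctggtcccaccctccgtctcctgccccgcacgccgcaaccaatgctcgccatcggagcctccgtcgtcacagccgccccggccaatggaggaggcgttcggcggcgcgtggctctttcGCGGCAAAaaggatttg

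**Figure D1:**
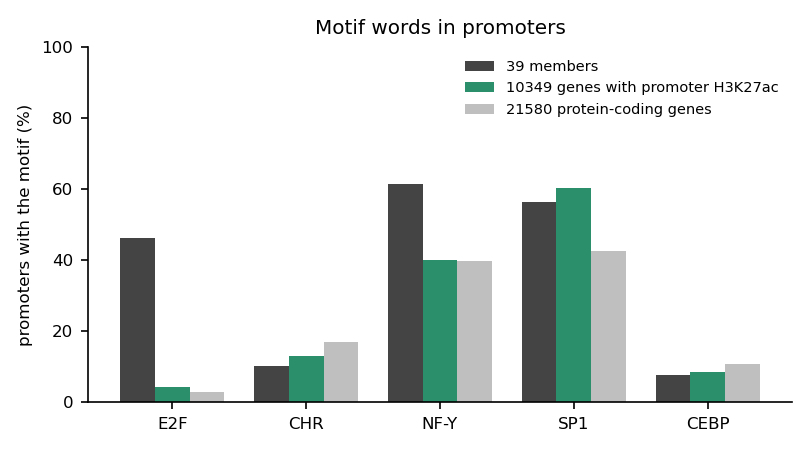
Share of promoters (vertical axis, %) that hold each motif word (horizontal axis) among the 39 replication and E2F target genes, 10349 genes with promoter H3K27ac in all 4 lists, and all 21580 protein-coding genes. E2F words stood in 46.2% of the members' promoters and in 2.84% of all promoters, and the CEBP word in 7.69% and 10.7%.

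All 39 genes had a promoter H3K27ac peak, meaning a summit within 1 kb of a start site of any protein-coding transcript of the gene, in every 1 of the 4 lists. Over all protein-coding genes the share was 50.7% in untreated p42, 50.5% in p42 with LPS, 50.7% in untreated p30 and 51.9% in p30 with LPS. The genes thus lay wholly among acetylated promoters, and promoter presence alone did not separate lines or treatments. Among 72 other replication and cell cycle genes, 71, 72, 70 and 71 had such a peak. Of the 39 genes, 8 shared their start region with another protein-coding gene on the opposite strand. These were Mcm4 (with Prkdc), Mcm7 (Ap4m1), Cdc45 (Ufd1), Pole (Pxmp2), Tk1 (Afmid), Ccne1 (1600014C10Rik), Cdk2 (Pmel) and Brca1 (Nbr1). For these a promoter peak cannot be assigned to 1 of the genes, which holds for their values below. Over genes with promoter H3K27ac in all 4 lists, 24.6% had a shared start region.

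Presence does not rank promoters, so the strongest promoter peak of each gene was placed in order within its list. A rank percent of 1 means that 1% of the peaks in the list were as strong or stronger by p-value. The median over the 39 genes was 2.41% in untreated p42, 4.19% in p42 with LPS, 2.19% in untreated p30 and 2.62% in p30 with LPS. The medians over all genes with a promoter peak were 4.71%, 5.62%, 4.52% and 4.33%. The members' median was therefore stronger than the genome-wide median in each of the 4 lists.

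To compare genes across lists of unequal length, the 10349 genes with promoter H3K27ac in all 4 lists were ordered by that peak. The promoter percentile is the share of these genes with a weaker peak, so 100 is the strongest. In untreated p42, the 3 strongest members were Rbl1, which encodes the pocket protein p107, at percentile 98.6, Mcm3, a subunit of the MCM helicase, at 95.8, and the activator E2f3 at 95.2. The 3 weakest were E2f2, another activator of the family, at 13.2, and Mybl2, a MYB factor of proliferating cells, and Rrm2, the small subunit of ribonucleotide reductase, both at 25.0. At the Rbl1 promoter the fold enrichment over local background was 132 in untreated p42, 100 in p42 with LPS, 122 in untreated p30 and 139 in p30 with LPS. At the E2f2 promoter it was 11.9, 9.22, 12.5 and 14.5. These 2 genes, which act on the same pathway from opposite sides, stood at the ends of the order in all 4 lists.

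With LPS, most of the 39 promoters stood lower in the H3K27ac order, in both lines. In p42, 31 of 39 (79.5%) had a lower percentile with LPS than untreated, against 49.7% of the 10349 genes. In p30, 35 of 39 (89.7%) did, against 48.5%. The median percentile of the members was 69.77 in untreated p42 and 59.11 in p42 with LPS, and 70.87 and 64.03 in p30. The median difference per gene was -4.76 points in p42 and -7.31 points in p30, beside 0.03 and 0.14 points over all genes. The p42 and p30 comparisons use separate lists. In both lines together, 31 genes were lower (background 31.9% of genes), 4 (Mcm5, Ccne1, Ccna2 and Brca1) in p30 alone, and 4 (Cdc45, Rfc4, Ccnb1 and Rbl1) in neither.

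Larger shifts were counted next. A percentile lower by over 5 points was found for 17 of 39 genes in p42, against 20.1% of all genes, and for 25 of 39 in p30, against 18.0%. Only 2 of the 39 were higher by over 5 points in each line, where 20.4% and 19.4% of all genes were. Strong promoters are somewhat more likely to drop in any list, since of the strongest 25% of the 10349 genes 56.5% were lower with LPS in p42 and 54.9% in p30. Of the members starting in that class, 10 of 13 and 16 of 17 were lower.

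These are differences in order and not in absolute acetylation. On the log2 scale of the fold enrichment at the strongest peak, all genes had a median difference of -0.21 with LPS in p42 and 0.26 in p30. The members had -0.42 in p42 and 0.04 in p30, so they lay below the genome-wide median by similar steps, although in p30 their own enrichment with LPS was not below that of untreated cells. Ordering by fold in place of p-value left 30 of 39 lower in p42 and 35 of 39 lower in p30.

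**Figure D2:**
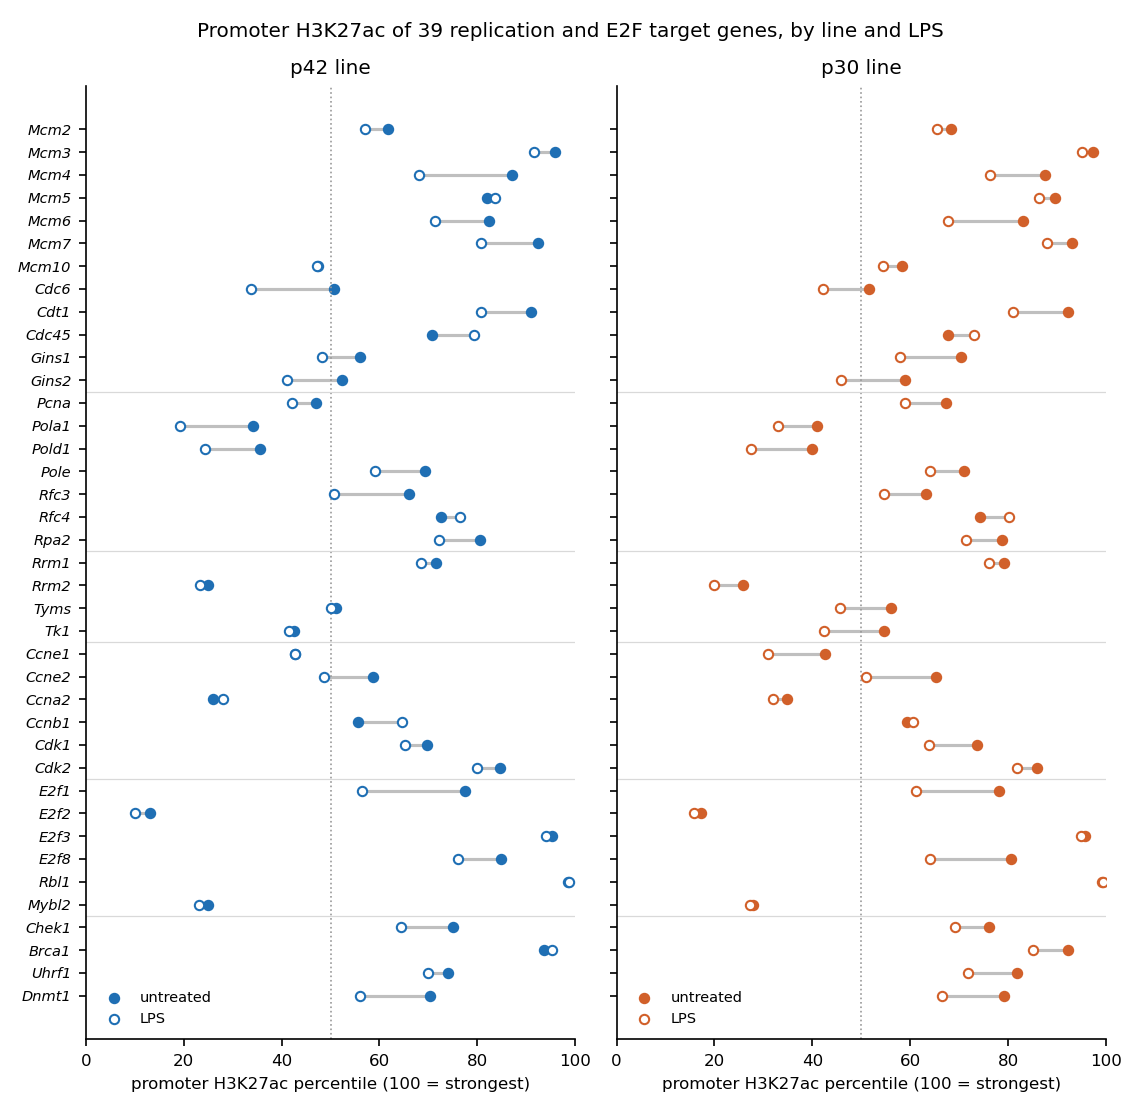
Promoter H3K27ac percentile (horizontal axis, 0 to 100, 100 = strongest among 10349 genes) of each of the 39 genes (rows, grouped by role) in the p42 line (left) and p30 line (right). Filled points are untreated and open points LPS-treated cells, each from 1 pooled list. Open points lie to the left of filled points for 31 genes in p42 and 35 in p30.

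Of the 12 origin licensing and helicase genes, 10 were lower with LPS in p42, with a median difference of -9.03 points, and 11 in p30, with -7.37 points. Mcm4, which encodes a subunit of the helicase, was at percentile 87.0 in untreated p42, 68.1 in p42 with LPS, 87.6 in untreated p30 and 76.3 in p30 with LPS. Both LPS values were below both untreated values. Cdc6, which loads the helicase, was at 50.8 and 33.8 in p42 and at 51.6 and 42.1 in p30. Mcm6 was at 82.3 and 71.3 in p42 and at 83.1 and 67.7 in p30. Cdt1, the partner of CDC6 in loading, was at 90.9 and 80.7 in p42 and at 92.3 and 81.0 in p30. The lines thus started from nearly the same percentile in these genes. Mcm7, with Ap4m1 on the opposite strand, was at 92.4 and 80.7 in p42 and at 93.1 and 87.9 in p30, and Gins2, another GINS subunit, was at 52.3 and 41.1 and at 59.0 and 45.8. Mcm5 was higher with LPS in p42 alone, at 81.9 and 83.6, and at 89.6 and 86.4 in p30. Higher in both lines was Cdc45, a helicase activator whose start region is shared with Ufd1, at 70.7 and 79.4 in p42 and at 67.8 and 73.1 in p30.

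Among the polymerase, clamp and single-strand binding genes, 6 of 7 were lower with LPS in each line. Pola1, the catalytic subunit of the priming polymerase, was at percentile 34.2 and 19.3 in p42 and at 41.0 and 33.0 in p30. Rfc3, a subunit of the clamp loader, was at 66.1 and 50.7 in p42 and at 63.3 and 54.6 in p30. Rfc4, another subunit of the same complex, was higher with LPS, at 72.6 and 76.5 in p42 and at 74.3 and 80.1 in p30. Pole, of the leading-strand polymerase, was at 69.2 and 59.1 in p42 and at 70.9 and 64.0 in p30. Subunits of the clamp loader therefore stood on both sides.

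All 4 nucleotide supply genes were lower with LPS in both lines, by a median of -1.40 points in p42 and -8.12 points in p30. Tk1, thymidine kinase, was at 42.6 and 41.6 in p42 and at 54.6 and 42.4 in p30. Tyms, thymidylate synthase, was at 51.2 and 50.1 in p42 and at 56.0 and 45.7 in p30. In these 2 genes the LPS difference was larger in p30, where the untreated value was also higher. Whether the LPS difference itself differed between lines was not tested.

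Cyclins and their kinases were split in p42, where 3 of 6 were lower with LPS, while 5 of 6 were lower in p30. Ccnb1, the mitotic cyclin B1, was at 55.6 and 64.6 in p42 and at 59.4 and 60.5 in p30. Ccne2, a cyclin of S phase entry, was at 58.6 and 48.7 in p42 and at 65.2 and 50.9 in p30. Cdk1, the mitotic kinase, was at 69.8 and 65.3 in p42 and at 73.6 and 63.8 in p30.

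In the group of E2F factors, the pocket protein and MYB, 5 of 6 were lower with LPS in each line. E2f1, the activating E2F that drives S phase entry, had the largest difference of all 39 genes in both lines. Its percentile was 77.5 in untreated p42, 56.4 in p42 with LPS, 78.1 in untreated p30 and 61.2 in p30 with LPS, with fold enrichments of 58.8, 33.6, 52.4 and 45. E2f8, a repressor of the E2F family, was at 84.9 and 76.1 in p42 and at 80.6 and 64.0 in p30. E2f3 stayed near the top at 95.2 and 94.1 in p42 and at 95.8 and 94.8 in p30.

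Of the 4 genes of checkpoint, repair and DNA methylation, 3 were lower with LPS in p42 and all 4 in p30. Dnmt1, the maintenance DNA methyltransferase, was at 70.4 and 56.1 in p42 and at 79.2 and 66.5 in p30. Chek1, the S phase checkpoint kinase, was at 75.0 and 64.4 in p42 and at 76.0 and 69.1 in p30. The LPS values of both genes were below both untreated values. Brca1, a repair gene, was at 93.6 and 95.3 in p42 and at 92.3 and 85.0 in p30.

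**Figure D3:**
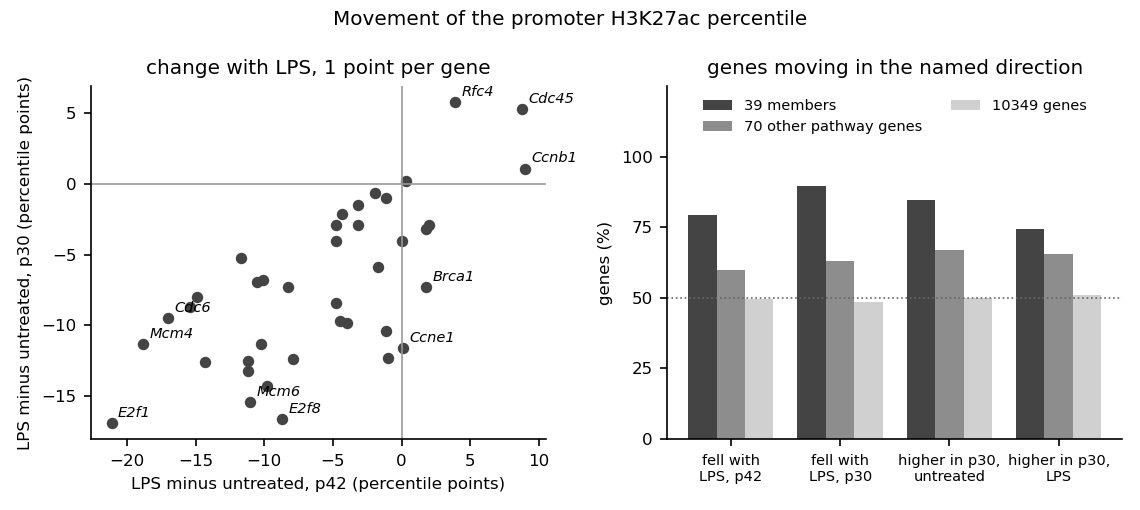
Left, difference of the promoter H3K27ac percentile with LPS (points, LPS minus untreated) in p42 (horizontal axis) and p30 (vertical axis), 1 point per gene. Right, share of genes (%) that moved in the named direction, for the 39 members, 70 other pathway genes and all 10349 genes with promoter H3K27ac in all 4 lists. The members' shares are 79.5%, 89.7%, 84.6% and 74.4%, beside about 50% over all genes.

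The same direction was seen more weakly in the wider pathway. Of 70 other replication and cell cycle genes that could be compared, 42 (60%) were lower with LPS in p42 and 44 (62.9%) in p30, with median differences of -2.47 and -2.66 points. Of the 18 members with an E2F word, 16 were lower in p42 (median -9.42 points) and 17 in p30 (-8.35 points). Of the 21 members without one, 15 were lower in p42 (-1.90 points) and 18 in p30 (-7.29 points). Over all genes in the order, 448 held an E2F word, and 58.7% of these were lower with LPS in p42 and 57.4% in p30, beside 49.3% and 48.1% of the 9901 genes without one. Between the untreated lines, compared next, the larger median difference lay with the members without a word. There 16 of the 18 members with a word were higher in p30 (median 1.12 points), and 17 of the 21 without one (4.80 points).

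Between the untreated lines, most of the 39 promoters stood higher in the H3K27ac order in p30 than in p42. This was so for 33 of 39 genes (84.6%), against 49.9% of all genes, with a median difference of 1.74 points. By over 5 points, 13 genes were higher in p30, against 17.1% of all genes, and no gene was lower. With LPS, 29 of 39 (74.4%, against 50.9%) were higher in p30, by a median of 3.62 points, and 11 were so by over 5 points, against 20.0%, while 4 were lower by over 5 points, where 18.8% of all genes were. These too are differences in order and not in absolute acetylation. The log2 fold enrichment of untreated members had a median difference of -0.11 (p30 minus p42), beside -0.19 over all genes. Their own enrichment was thus not higher in untreated p30. With LPS the medians were 0.40 and 0.28. Ordering by fold left 29 of 39 higher in untreated p30, against 48.6% of all genes, and 27 with LPS, against 50.9%. The untreated lists enter both this comparison and those with LPS, so the counts are not independent of each other.

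Pcna, the sliding clamp of the polymerases, had the largest difference between the lines, at percentile 47.0 in untreated p42 and 67.3 in untreated p30, and at 42.2 and 58.9 with LPS. Both p30 values were above both p42 values. Gins1, a subunit of the GINS complex, was at 56.1 and 70.3 untreated and at 48.2 and 57.9 with LPS. Tk1 was at 42.6 and 54.6 untreated, but at 41.6 and 42.4 with LPS. With LPS, Pola1 followed Pcna, at 19.3 in p42 and 33.0 in p30. Lower in untreated p30 by the most were E2f8, at 84.9 in p42 and 80.6 in p30, and Rfc3 and Cdc45. With LPS, E2f8 was at 76.1 in p42 and 64.0 in p30, Ccne1 at 42.8 and 30.9 and Brca1 at 95.3 and 85.0. Of the 70 other pathway genes, 47 (67.1%) were higher in untreated p30, by a median of 1.87 points, beside 1.74 points for the members. With LPS, 46 (65.7%) were higher in p30, by a median of 2.67 points. By over 5 points, 32.9% of them were higher with LPS, beside 28.2% of the members. The higher place in p30 was thus not particular to the 39 genes.

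The width of H3K27ac around each start was counted in bases and not as a place in an order. In the 5 kb around the canonical start, the median number of bases under a peak was 3113 for the members in untreated p42, 2992 in p42 with LPS, 3007 in untreated p30 and 3136 in p30 with LPS. The medians over the 10349 genes were 2586, 2427, 2491 and 2648, so the members' acetylated stretch was the wider in each list. With LPS, 28 members had fewer covered bases in p42, against 63.6% of all genes, and 16 in p30, against 32.7%. Pold1, the catalytic subunit of polymerase delta, had 4387 covered bases in untreated p42 and 2992 with LPS. In p30, Mcm2 had 3726 and 3121, and Tk1 had 2674 and 3509. Between untreated lines, E2f8 differed most, with 4817 bases in p42 and 3572 in p30. Across the members, both directions followed what all genes did in the same list.

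A promoter H3K4me1 peak was found at 16 of 39 genes in p42 (41%) and at 16 in p30 (41%). The background over all protein-coding genes was 24.2% in p42 and 29.5% in p30, but among genes with promoter H3K27ac in all 4 lists it was 42.1% and 49.9%. The members were thus above the share of all genes and near or below that of other acetylated promoters. Only 8 genes had the peak in both lines (Mcm3, Mcm6, Rrm1, Tk1, Ccne2, Cdk1, E2f8 and Uhrf1), beside 34.1% of genes with promoter H3K27ac. Another 8 had it in p42 alone (8.02% of those genes), 8 in p30 alone (15.8%) and 15 in neither (42.1%). The median fold at these peaks was 3.17 in p42 and 3.1 in p30, beside 3.64 and 3.62 over all genes with such a peak. Uhrf1, a partner of DNMT1 at replicated DNA, had the strongest in p30, with fold 5.68, and Cdc6 the strongest in p42, with fold 4.83.

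Distal H3K27ac, meaning a summit over 1 kb from every start whose nearest protein-coding start belonged to the gene and lay within 50 kb, was found for 35 members in untreated p42 (background 54.8%), 34 in p42 with LPS (52.7%), 35 in untreated p30 (55.4%) and 35 in p30 with LPS (55.9%). Among genes with promoter H3K27ac the shares were 83.5%, 80.9%, 84.1% and 84%. Pcna, Ccne1, Ccna2 and Cdk2 had no distal H3K27ac peak in any list, and Mcm4 had none in p42 with LPS. The members held 275 distal peaks in untreated p42, 223 in p42 with LPS, 298 in untreated p30 and 264 in p30 with LPS.

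The most distal peaks were held by 4 genes, summed over the 4 lists. Cdc6 had 19 in untreated p42, 21 in p42 with LPS, 21 in untreated p30 and 16 in p30 with LPS. Mcm6 had 22, 19, 18 and 17, Dnmt1 had 17, 16, 16 and 18, and E2f8 had 13, 12, 20 and 16. No common direction with LPS was seen among them. In p42, 56.4% of the members' 275 untreated distal peaks overlapped a peak of the LPS list (Wilson 95% interval 50.5 to 62.1), beside 58.6% of all distal peaks. In p30, 64.4% of 298 did (58.8 to 69.6), beside 69.8% of all distal peaks. For distal peaks near genes with promoter H3K27ac the share was 69.3%. In reverse, 83% of 223 in p42 (77.5 to 87.3, all 79.9%) and 76.9% of 264 in p30 (71.4 to 81.6, all 71%) of the members' LPS peaks overlapped an untreated peak. In p30 the share near genes with promoter H3K27ac was 71.3%. Such intervals cover counting error only and treat each peak as a separate draw. Many of the peaks belong to the same genes, so the place of a share against a limit is not a test.

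Distal H3K4me1 was found for 32 members in p42 (background 50.5%) and 32 in p30 (53.8%), near the 77.7% and 80.3% of genes with promoter H3K27ac. The number of peaks was lower, at a mean of 4.23 per member in p42 and 4.77 in p30, beside 8.16 and 9.4 over those genes, but the medians were closer, at 3 per member and 4 per gene in both lines. E2f8 held the most, with 27 in p42 and 23 in p30, followed by E2f3 with 16 and 20. Mcm4, Pold1, Ccna2 and Cdk2 had none in either line.

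CEBPA was found at few of the promoters. With the anti-CEBPA antibody, 5 of 39 promoters had a peak in p42 (12.8%, Wilson 95% interval 5.6 to 26.7) and 4 in p30 (10.3%, 4.06 to 23.6). With the anti-ER antibody, 2 had one in p42 (5.13%, 1.42 to 16.9) and 8 in p30 (20.5%, 10.8 to 35.5). The background over all protein-coding genes was 10.8% and 10.4% for anti-CEBPA and 9.64% and 15.3% for anti-ER. Over genes with promoter H3K27ac it was 16.7% and 17.5% for anti-CEBPA and 17.2% and 27.7% for anti-ER. The members lay below this active background in all 4 lists. It fell inside the counting interval in 3 of them, and for anti-ER in p42 it lay just past the upper limit of 16.9%. The intervals cover counting error only and are not a test of a difference.

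In all, 8 genes had a promoter site in any of the 4 lists, and the share among genes with promoter H3K27ac was 31.6%. Only Mcm3 and E2f8 had one in all 4 lists, where 10.9% of those genes did. At Mcm3 the site lay 162 bp upstream of the start at chr1:20890445-20890955, with a fold of 18.8 with anti-CEBPA in p42, 17.1 with anti-CEBPA in p30, 8.72 with anti-ER in p42 and 37 with anti-ER in p30. At E2f8 it lay 1413 bp upstream of the canonical start, within 1 kb of another start of the gene, at chr7:48532024-48532380, with folds of 6.94, 16.4, 16.4 and 34.9 in the same order. Both sites were strongest with anti-ER in p30, among the best 3.51% and 3.6% of that list.

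The other promoter sites were weak. Brca1 had a site 226 bp upstream of its start with folds of 5.12 with anti-CEBPA in p42, 6.05 with anti-CEBPA in p30 and 3.95 with anti-ER in p30, and another at an internal start in the p30 anti-CEBPA list alone. Chek1 had a site at its start with folds of 5.76 with anti-CEBPA in p42 and 5.88 with anti-ER in p30. Pold1 had one with 6.96 and 4.11 in those lists. Cdc6 had one in p30 alone, with 5.12 by anti-CEBPA and 5.25 by anti-ER. Rrm2, with a fold of 6.51, and Uhrf1, with 2.52, had a site with anti-ER in p30 alone. All of these lay in the weaker part of their lists, at rank percents from 57.3 to 99.5.

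**Figure D4:**
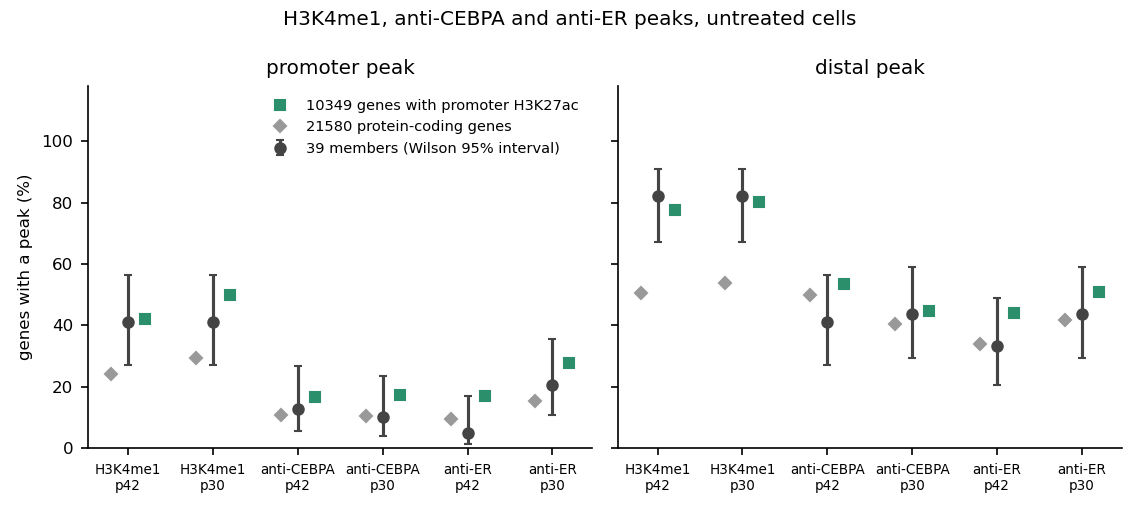
Share of genes (vertical axis, %) with a promoter peak (left) or distal peak (right) of H3K4me1, anti-CEBPA or anti-ER in untreated p42 and p30 cells, for the 39 members (circles, with Wilson 95% intervals), 10349 genes with promoter H3K27ac (squares) and 21580 protein-coding genes (diamonds). For anti-CEBPA and anti-ER the circles lie below the squares in every list, for example at 12.8% and 16.7% for promoter anti-CEBPA in p42.

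Distal CEBPA peaks were found for 16 members with anti-CEBPA in p42 (41%, 27.1 to 56.6) and 17 in p30 (43.6%, 29.3 to 59), and for 13 with anti-ER in p42 (33.3%, 20.6 to 49) and 17 in p30 (43.6%, 29.3 to 59). The background over all genes was 49.9%, 40.6%, 34.1% and 41.7%. Over genes with promoter H3K27ac it was 53.6%, 44.7%, 44.1% and 50.8%. The members' shares were again the lower of the pair in each list, with the active background inside each interval.

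Merging the 4 lists gave 49 sites near 22 of the 39 genes. Any site, at the promoter or distal, was found for 72.4% of genes with promoter H3K27ac. No site was found for 17 members, among them Mcm2, Mcm4, Mcm7, Pcna, Pola1, Ccna2, Cdk1 and Cdk2. Of the 49 sites, 13 (26.5%) were in all 4 lists, beside 23.8% of the 36329 merged sites near any gene. A share of 65.3% (32 sites, 51.3 to 77.1) was found in both lines, beside 55.5%. A further 8 were in p42 lists alone (16.3%, beside 23.9%) and 9 in p30 lists alone (18.4%, beside 20.6%). Of the 36 anti-CEBPA sites in p42, 24 (66.7%, 50.3 to 79.8) overlapped one in p30, beside 57.2% of all such sites, and 24 of the 29 in p30 (82.8%, 65.5 to 92.4) overlapped one in p42, beside 81.1%. H3K27ac of either untreated line overlapped 30 of the 49 (61.2%, 47.2 to 73.6), beside 47.2% of all merged sites and 62.7% of those near genes with promoter H3K27ac. Most member sites were therefore present with both isoforms, and the shares over sites near genes with promoter H3K27ac (56.5% in both lines) lay inside these intervals.

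A distal site was found with both antibodies in at least 1 line for 15 of the 39 genes, beside 44.0% of genes with promoter H3K27ac, and in each line for 8, beside 31.7%. These 8 were Mcm3, Mcm5, Mcm10, Rrm2, Tyms, E2f2, E2f8 and Rbl1. At E2f2, a site 7371 bp downstream of the start had folds of 26 with anti-CEBPA in p42, 11.4 with anti-CEBPA in p30, 15.1 with anti-ER in p42 and 11.8 with anti-ER in p30, although its promoter H3K27ac was the weakest of the members. At Mcm3, a second site 7916 bp upstream had folds of 22, 10.7, 14.6 and 15. At E2f8, a site 2645 bp upstream had 20.2, 18.5, 13.7 and 16. At Tyms, a site 25899 bp downstream of the start had 16.7, 16.4, 10.4 and 16.1. At Rrm2, a site 2488 bp downstream had 12.5, 14.9, 5.66 and 9.46, and one 27463 bp downstream had 10.7, 12.1, 12.6 and 14.8. In Mcm5 a site 10473 bp downstream had 8.16, 7.17, 6.73 and 21.7, the last being within the best 7.6% of its list.

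Of the 36 sites in fewer lists, those of 3 genes are given here. Mcm6 had one 26969 bp upstream, with folds of 10.5 with anti-CEBPA in p42, 15 with anti-ER in p42 and 13.3 with anti-ER in p30, and another 4575 bp upstream, with 11.5 with anti-CEBPA in p42, 6.05 with anti-CEBPA in p30 and 6.43 with anti-ER in p42. A site 2023 bp upstream of Mcm6 had a fold of 7.46 with anti-CEBPA in p42 alone. E2f1 had a single site, 4766 bp upstream, in the p30 lists alone, with folds of 5.12 and 5.88. Dnmt1 had a single site, with fold 5.1, in the anti-CEBPA list of p42 alone.

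**Figure D5:**
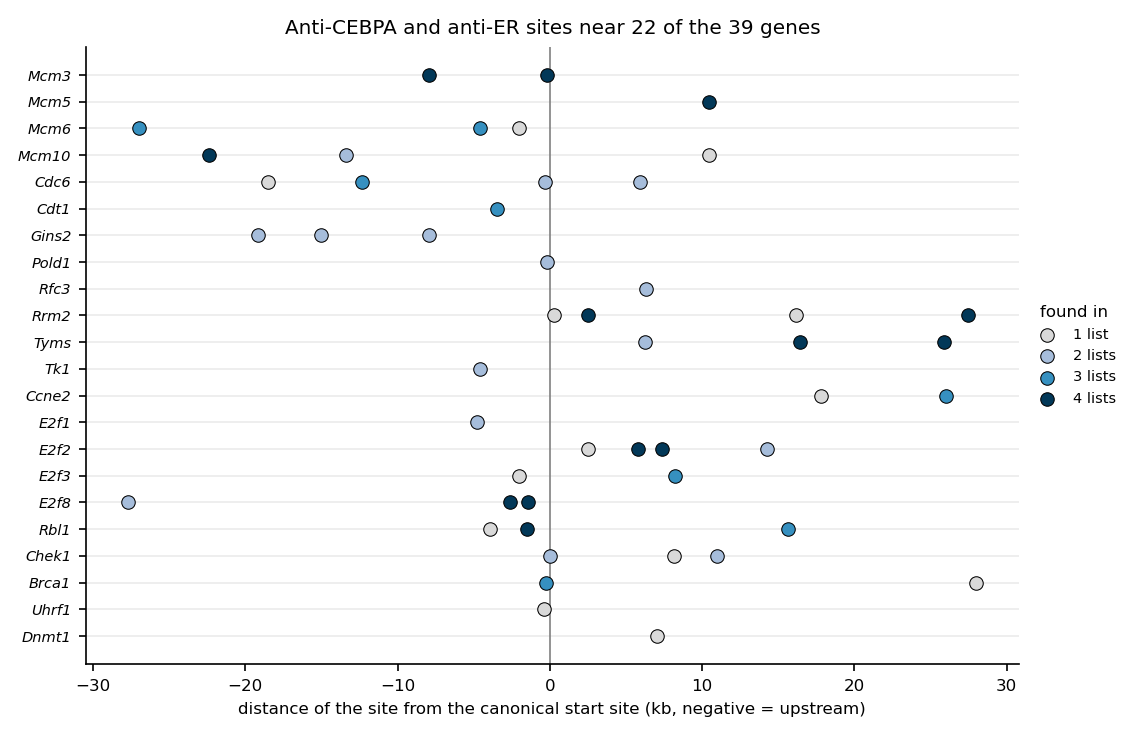
Position of the 49 merged anti-CEBPA and anti-ER sites (horizontal axis, kb from the canonical start, negative = upstream) at the 22 genes that have one (rows), with shade giving the number of the 4 lists that hold the site. The 13 darkest points, in all 4 lists, belong to 8 genes.

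Sequence at 9 of the 13 sites found in all 4 lists is shown as 101 bases of GRCm39 around the strongest summit, with the CEBP word TTGCNNAA, read on either strand, in capitals. Sites in all 4 lists were found with both antibodies in both lines, while most occupancy counts above also include the sites in fewer lists. Of the 13, 11 (84.6%) held the word within these bases, against 54.9% of all sites in the 4 lists. The 2 without it were a site of Rrm2, shown, and one of E2f2, 5770 bp downstream, not shown. Of the 36 sites in fewer lists, 9 (25%) held it, against 33.7%. Of the 3 members with the word in their promoter window (Mcm3, Gins1 and Pcna), only Mcm3 had a promoter site in any list.
Mcm3 promoter site, chr1:20890648-20890748, plus strand: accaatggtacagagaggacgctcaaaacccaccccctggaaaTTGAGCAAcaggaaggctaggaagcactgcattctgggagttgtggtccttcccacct
Mcm3 distal site, chr1:20898402-20898502, plus strand: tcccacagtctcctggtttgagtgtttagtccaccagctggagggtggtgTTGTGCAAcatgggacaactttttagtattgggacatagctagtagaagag
E2f8 promoter site, chr7:48532171-48532271, plus strand: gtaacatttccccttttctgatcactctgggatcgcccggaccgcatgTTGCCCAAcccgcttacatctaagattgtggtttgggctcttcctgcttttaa
E2f8 distal site, chr7:48533403-48533503, plus strand: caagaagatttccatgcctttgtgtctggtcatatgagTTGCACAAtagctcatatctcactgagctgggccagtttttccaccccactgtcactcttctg
Mcm10 distal site, chr2:5039966-5040066, plus strand: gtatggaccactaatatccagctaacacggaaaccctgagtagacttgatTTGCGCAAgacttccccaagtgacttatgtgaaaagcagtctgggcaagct
Rrm2 distal site with the word, chr12:24785224-24785324, plus strand: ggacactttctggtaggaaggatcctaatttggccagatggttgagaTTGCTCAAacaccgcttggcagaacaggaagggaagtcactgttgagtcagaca
Rrm2 distal site without the word, chr12:24760249-24760349, plus strand: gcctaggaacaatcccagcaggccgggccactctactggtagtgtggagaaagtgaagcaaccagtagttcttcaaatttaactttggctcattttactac
Tyms distal site, chr5:30252678-30252778, plus strand: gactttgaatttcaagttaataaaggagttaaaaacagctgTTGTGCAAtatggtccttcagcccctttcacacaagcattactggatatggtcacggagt
E2f2 distal site, chr4:135906906-135907006, plus strand: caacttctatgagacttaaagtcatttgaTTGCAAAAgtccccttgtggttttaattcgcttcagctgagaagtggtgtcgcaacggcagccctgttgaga

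The LPS difference in promoter percentile was seen with and without a CEBPA site nearby. Of the 22 genes with a site, 19 were lower with LPS in p42 (median -6.52 points) and 21 in p30 (-9.69 points). Of the 17 genes without one, 12 were lower in p42 (-4.76 points) and 14 in p30 (-5.20 points). Higher in untreated p30 were 19 of the 22 and 14 of the 17.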

How the data were processed

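Peak lists of HPC-7 cells were used in the unit the authors deposited. As described by the study's methods and the submitters' processing notes, reads were trimmed with Trim Galore (0.6.6) and aligned with Bowtie2 to mm39, duplicates were excluded with Picard, and MACS2 called narrow peaks with input as control. The deposited columns hold a fold enrichment (ratio) at the summit and the −log10 of a p-value and of a q-value, down to a q-value of about 0.05. Replicates were pooled by the authors for H3K27ac and H3K4me1, and the other lists rest on 1 library each. The anti-CEBPA lists were possibly called with another model setting than the rest, going by their names.

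Peaks on standard chromosomes were ranked by −log10 p, then fold. Starts came from protein-coding transcripts of GENCODE on GRCm39. The percentile order and its alternatives were added after the values were seen. The 39 genes, their 6 role groups and the other lists were chosen with earlier results of these data known. Genes given with values were drawn from planned classes, with a change of measure in one, and not every gene of a class is given in full. These were genes with a promoter CEBPA site, the 3 strongest and weakest promoters, and the 3 largest differences each way. The differences had been planned on rank percent and on covered bases. For rank percent, the percentile added later was used in its place. Further classes were the 4 genes with most distal H3K27ac and those with a distal site by both antibodies. Others were added as examples of their role groups. Merged sites overlapped by at least 1 bp. No test was run, since no list has replicates. The steps were tested on simulated data. Motif shares had been planned in the RefSeq promoter table and were also computed on GRCm39, the build of the peaks, from which the sequences shown were read. Analyses used Python 3.11.15 (matplotlib 3.10.9, scipy 1.17.1, pandas 2.3.3, numpy 2.4.6).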

Additional observations from a re-analysis of the deposited data

Results flagged for a closer look

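With LPS, the median number of H3K27ac-covered bases in the 5 kb around the members' starts moved in opposite directions in the lines. The median difference was -177 bases in p42 and 56 bases in p30. Each line is 1 pooled list per condition, so the difference between lines was not tested. All 10349 genes with promoter H3K27ac moved the same ways, with medians of -83 and 86 bases.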

How the results depend on the processing

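No paired analysis was possible because each list pools its replicates or holds 1 library, and no replicate could be left out for the same reason. Of 193 alternative values over 35 results, 172 stayed within 1.5 times the count, or within the counting interval of a share, and 21 did not. Promoter H3K4me1 depended on the setting most. Shares over all protein-coding genes, in brackets, moved with the setting too. In p42, 16 members (24.2%) became 6 at q under 1e-05 (15%) and 10 with canonical starts alone (16%). They became 6 with summits within 500 bp (13.5%) and 30 within 2500 bp (42.4%). In p30, 16 (29.5%) became 7 at q under 1e-05 (18.6%), 7 within 500 bp (17%) and 29 within 2500 bp (46.5%). Promoter anti-CEBPA in p42, with 5 members (10.8%), gave 3 with equal numbers of peaks per list (7.7%) and 8 within 2500 bp (18.9%). Promoter anti-ER in p42, with 2 (9.64%), gave 1 with canonical starts alone (7%), 1 within 500 bp (6.73%) and 4 within 2500 bp (15.2%). In p30, with 8 (15.3%), it gave 4 with equal numbers of peaks (10.3%). With lists of equal length, 80% of p42 anti-CEBPA sites near members overlapped a p30 site (all sites 73.6%) and 63.2% the reverse (71.2%), 78.3% of p30 anti-ER sites overlapped a p42 site (75.1%), and 93.3% of p42 anti-CEBPA sites overlapped an anti-ER site (67.5%). Requiring over 5 points was an alternative chosen after seeing the data, with shares over the 10349 genes in brackets. It left 17 members lower with LPS in p42 (20.1%), 13 higher in untreated p30 (17.1%) and 11 higher in p30 with LPS (20%). Without the 8 genes with a shared start region, also chosen after seeing the data, 26 of 31 were lower with LPS in p42 (49.7%) and 28 in p30 (48.5%). Depth is unknown, and a missing weak peak does not show absence of binding.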
